A study of Homo sapiens with 6 samples.

Results

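Glycolysis and hypoxia-inducible genes were followed in SW872, a human liposarcoma cell line, with and without Apatinib. The 36 genes were chosen by their symbols, out of 57773 genes in the table of counts. They comprised 17 glycolytic enzymes, 4 transporters of glucose or lactate, 4 enzymes that set the direction of glycolytic flux, HIF1A with 2 of the enzymes that sense oxygen for it, and 8 other targets of HIF1A. All 36 were found in the table and passed the filter on low counts. The Apatinib group held 3 biological replicates that received Apatinib at 18 μM over 24 h, and the control group held 3 whose titles and treatment labels give no treatment. The protocol text of the labels is the same for all 6 samples and names Apatinib, so the groups were taken from the titles. Both groups were the same cell line, which stands for 1 tumor, in RPMI-1640 with 10% FBS in a standard CO2 incubator. Whether the control group received the carrier of the drug is not given in the sources used here, and no step with lowered oxygen is described. Apatinib is a small-molecule inhibitor of the tyrosine kinase VEGFR2. In a bulk sample of RNA, fewer cells of a kind and less RNA per cell cannot be told apart.

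Glycolysis splits glucose into pyruvate, and lactate dehydrogenase turns pyruvate into lactate, which regenerates the cofactor that the path needs. Many tumor cells run this path fast even where oxygen is present. HIF1A is the oxygen-regulated subunit of a transcription factor that raises the genes of this path: with oxygen, the prolyl hydroxylases of the EGLN family mark its protein for destruction, so the factor is controlled mainly at the level of protein and little at that of mRNA. Its partner is ARNT, and the pair recognises a short DNA core, ACGTG or GCGTG, near its target genes.

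The libraries held between 17043314 and 22067558 counts. Controls 1 and 2 were much more alike than any other pair of one group: the mean chi-square of their counts per gene was 2.27, against 18.2 to 44.5 for the other 5 pairs within a group. The study names biological replicates, but such closeness leaves it unsure that these are separate cultures, and with both taken as 1 sample the control group would hold 2. Control 3 stood apart from them for the genes described here, since it held the highest level of the control group in all 17 glycolytic enzymes. Among all genes tested, control 3 was highest in 42.1%. Apatinib 2 held the lowest level of its group in 15 of the 17 enzymes, against 35.4% of all genes, and Apatinib 1 the highest in 14 of the 17. The share of mitochondrially encoded counts was 5.16% to 5.69% with Apatinib and 4.47% to 5.11% in the control group. Its part in the results was not tested. The mesenchymal marker VIM was read at 13447 to 18790 counts, and PPARG, a regulator of adipocytes, was read at 859 to 1138 counts. Of the 6 adipocyte markers, FABP4 and ADIPOQ had 0 counts in every library, where a count of 0 allows up to 3. LEP and CIDEC had at most 2. PLIN1, also on that list, was read at 14 to 30 counts, higher with Apatinib without overlap (log2 fold change 0.605, FDR 0.225, edgeR). The list summed to 51.2 to 65.9 CPM with Apatinib and 51.0 to 52.8 CPM in the control group. The 6 mesenchymal markers summed to 2273 to 2677 CPM (counts scaled to library size) with Apatinib and 1810 to 2038 CPM in the control group. Their part in the results was not tested. Of the 4 blood markers, PTPRC had 0 counts in every library and CD14 40 to 107 (log2 fold change -0.53, FDR 0.156, edgeR). They summed to 2.29 to 3.83 CPM with Apatinib and 4.32 to 5.16 CPM in the control group, without overlap. The epithelial markers EPCAM and CDH1 had at most 7. The keratins KRT8 and KRT18, on the same list of 5 epithelial markers, were read at 537 to 1157 and 1068 to 1526 counts, and KRT8 rose (log2 fold change 0.71, FDR 0.0166, edgeR). The list summed to 124 to 155 CPM with Apatinib and 93.2 to 108.5 CPM in the control group. Of the endothelial markers, VWF rose and CDH5 fell at 9 to 56 counts, and KDR had at most 11. The part of these markers in the results was not tested.

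The levels per transcript length, in FPKM (fragments scaled to transcript length and to the mapped fragments), spanned a range from 2.01 ± 0.239 (SD, n = 3) for ADM to 1989 ± 169 for PKM in the control group. PKM, which encodes the pyruvate kinase of the last step, was followed by GAPDH with 1930 ± 229 FPKM. LDHA, the main lactate dehydrogenase subunit, had 883 ± 74.3 FPKM, ENO1, an enolase, 864 ± 78.3 FPKM, and ALDOA, an aldolase, 791 ± 91.0 FPKM. These 5 levels did not all separate: the ranges of PKM and GAPDH overlapped among the control replicates, and so did those of LDHA, ENO1 and ALDOA. Of the hexokinases HK1 was the more abundant, with 48.4 ± 3.09 FPKM against 8.34 ± 0.0603 FPKM for HK2. Likewise ALDOC and ENO2 were low, with 7.63 ± 2.18 and 11.4 ± 0.260 FPKM. HIF1A itself was abundant, with 156 ± 38.2 FPKM, while CA9, a carbonic anhydrase used as a mark of hypoxia, had 5.96 ± 0.846 FPKM.

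**Figure D1:**
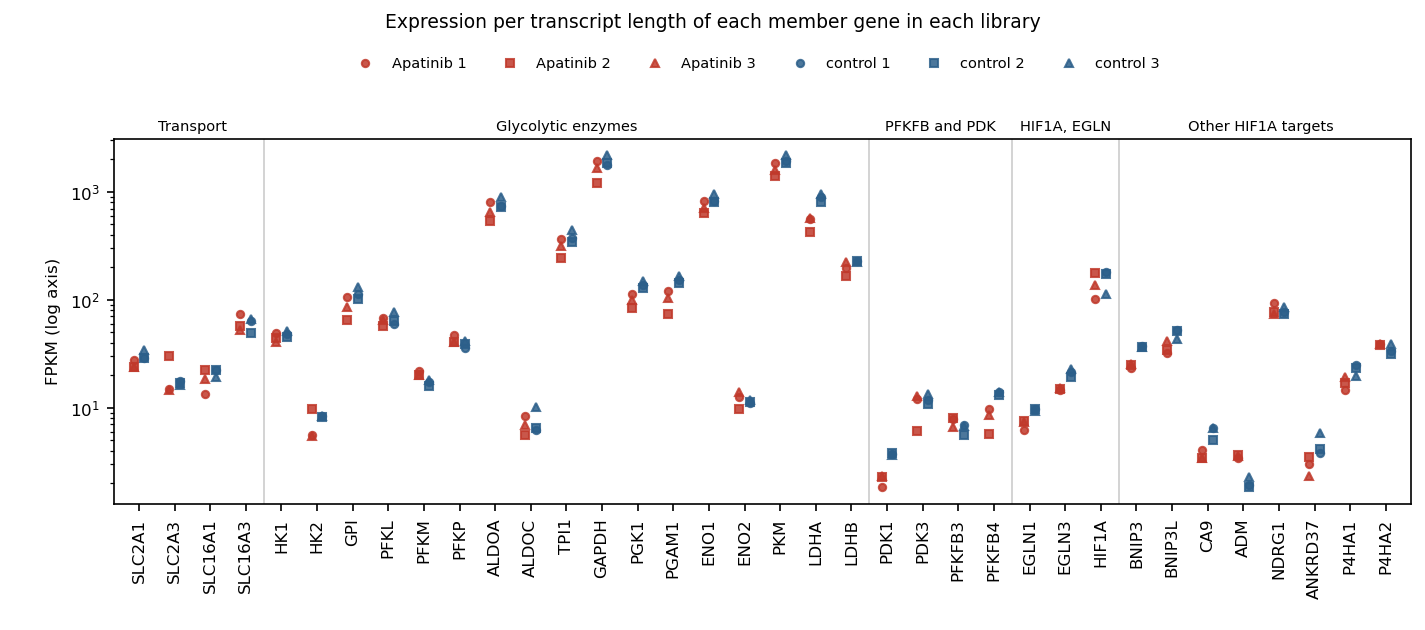
FPKM (log axis) of the 36 genes in each of the 6 libraries, grouped by role, with red symbols for the 3 Apatinib replicates and blue for the 3 control replicates. PKM, GAPDH, LDHA, ENO1 and ALDOA lie highest, ADM and PDK1 lowest, and the red symbols of LDHA, PDK1, PFKFB4, BNIP3 and CA9 lie below all the blue ones.

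More of these genes fell than rose with Apatinib. Genes were counted as DEGs (edgeR) where the FDR was below 0.05 and the log2 fold change exceeded 0.5 in either direction. By this definition 8 of the 36 genes fell (22.2%, where 5.48% of all 16290 genes tested fell) and 1 rose (2.78%, where 5.97% of all genes rose). The genes that fell were LDHA, PGK1, PGAM1, PDK1, PFKFB4, BNIP3, CA9 and EGLN3, and the gene that rose was ADM. Their log2 fold changes lay between -0.84 and -0.51, and that of ADM was 0.75. The median log2 fold change over the 36 genes was -0.28 against 0.00 over all genes tested, and 27 of the 36 estimates were below 0 (49.7% of all genes were). In 14 of the 36 genes the groups did not overlap (38.9%, near the 33.2% of all genes). Lower without overlap were 13 of the 36 (15.7% of all genes), and higher without overlap was 1 (17.5% of all genes). An FDR under 0.05 at any fold was reached by 12 of the 36, of which 11 were lower (12.9% of all genes reached it). The calls depended on controls 1 and 2. With control 1 left out, edgeR called 0 of the 36 (15 had an unadjusted p under 0.05), with control 2 left out also 0 (13 under 0.05), and with both summed into 1 sample again 0 (14 under 0.05). The calls over all genes fell in the same fits from 1866 to 275, 300 and 292. The directions of the 9 called genes held in all 16 other fits. Leaving out Apatinib 1, 2 or 3 or control 3 gave 8, 7, 9 and 8 called genes, where 4.73%, 8.91%, 12.1% and 15.5% of all genes were called. These were not the same 9: without Apatinib 3 and without control 3, PGAM1 and PGK1 were lost and BNIP3L and P4HA1 were called, and EGLN3 was lost as well without control 3.

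**Figure D2:**
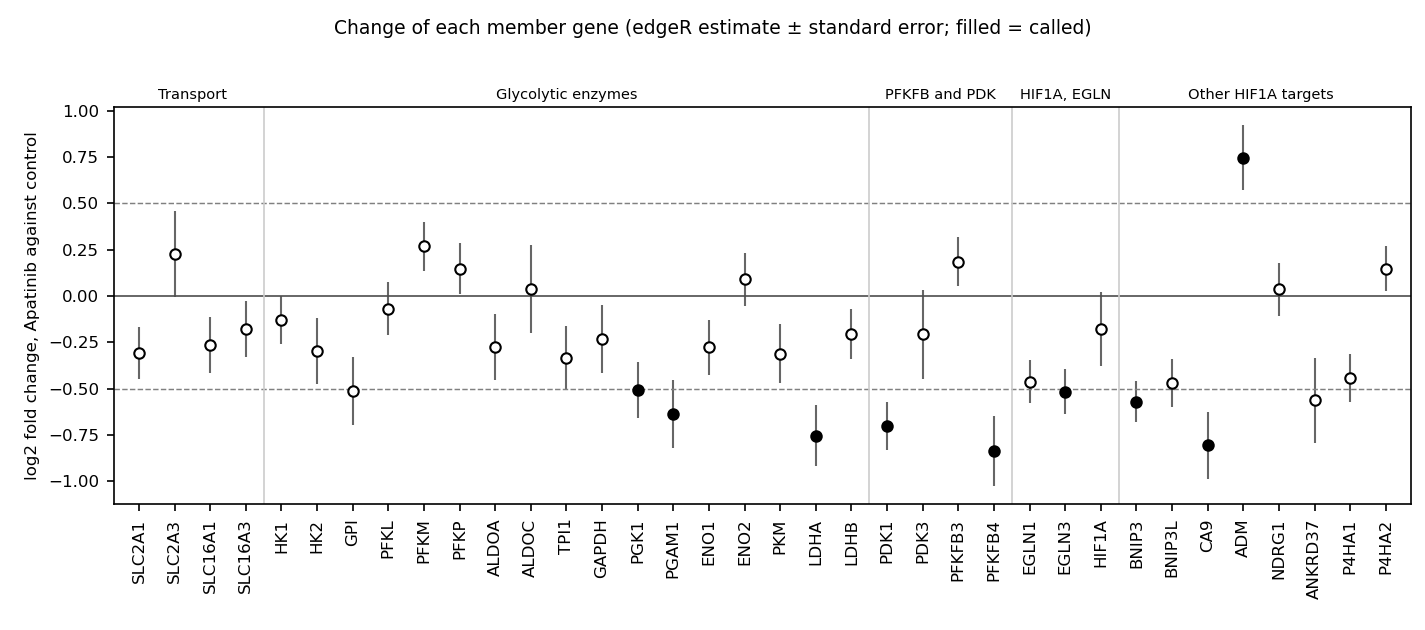
Log2 fold change of each of the 36 genes with Apatinib against the control group (edgeR, 3 against 3 libraries; bars are 1 standard error), with filled symbols for DEGs and dashed lines at the fold limit of 0.5. The 8 genes that fell are spread over 4 of the 5 role groups, and ADM is the only filled symbol above 0.

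The DNA before the start of these genes is shown for 5 of the 9 called genes, to set the core that the HIF1A and ARNT pair recognises beside the values. The 250 bases upstream of the start site were taken from a set of RefSeq promoters (GRCh38.p14), in which 32 of the 36 genes were matched by symbol. Capitals mark ACGTG or GCGTG on either strand, so that CACGT and CACGC are the same letters read on the other strand and CACGTG is a match on both. LDHA lies on chromosome 11 and its window is chr11:18394313-18394562 (plus strand). The window of PGK1, a phosphoglycerate kinase, is chrX:78103998-78104247 (plus strand). BNIP3, which acts in the removal of mitochondria, has the window chr10:131981924-131982173 (minus strand). The windows of CA9 and ADM are chr9:35673678-35673927 and chr11:10304823-10305072 (both plus strand).
LDHA: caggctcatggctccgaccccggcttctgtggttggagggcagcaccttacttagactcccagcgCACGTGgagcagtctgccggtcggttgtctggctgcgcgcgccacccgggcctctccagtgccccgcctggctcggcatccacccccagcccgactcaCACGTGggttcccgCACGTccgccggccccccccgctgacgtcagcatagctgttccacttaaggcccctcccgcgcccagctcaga
PGK1: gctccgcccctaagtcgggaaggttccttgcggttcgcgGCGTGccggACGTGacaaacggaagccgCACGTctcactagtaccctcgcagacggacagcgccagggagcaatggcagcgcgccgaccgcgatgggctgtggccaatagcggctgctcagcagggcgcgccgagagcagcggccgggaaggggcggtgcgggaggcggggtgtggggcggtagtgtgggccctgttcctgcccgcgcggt
BNIP3: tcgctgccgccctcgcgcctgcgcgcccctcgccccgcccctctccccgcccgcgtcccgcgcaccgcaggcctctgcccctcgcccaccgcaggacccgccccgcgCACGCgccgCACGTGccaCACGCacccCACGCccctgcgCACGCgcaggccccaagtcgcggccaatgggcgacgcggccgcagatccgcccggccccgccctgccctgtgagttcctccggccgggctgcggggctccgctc
CA9: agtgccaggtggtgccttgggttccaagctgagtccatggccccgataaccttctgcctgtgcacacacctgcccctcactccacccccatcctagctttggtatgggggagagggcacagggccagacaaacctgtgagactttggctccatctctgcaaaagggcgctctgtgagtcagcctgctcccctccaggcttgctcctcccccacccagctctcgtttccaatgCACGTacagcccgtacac
ADM: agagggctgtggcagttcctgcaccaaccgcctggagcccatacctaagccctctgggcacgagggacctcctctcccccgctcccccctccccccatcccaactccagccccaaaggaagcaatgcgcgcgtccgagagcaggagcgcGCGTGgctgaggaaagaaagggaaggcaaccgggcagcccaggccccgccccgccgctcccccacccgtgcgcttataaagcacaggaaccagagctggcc

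The core stood at 3 places before LDHA and at 3 before PGK1, at 5 before BNIP3, and at 1 each before CA9 and ADM. PFKFB4 held 1 match as well, and the windows of PDK1, EGLN3 and PGAM1 held none. Over the 32 windows, 20 (62.5%) held ACGTG or GCGTG, against 43.2% of all 35116 promoter windows of this length. The difference lay in ACGTG, with 43.8% of the 32 windows and 18.5% of all windows, whereas GCGTG stood in 34.4% and 32.2%. The genes were listed for glycolysis, which HIF1A raises, or for their tie to HIF1A. An excess of its core can come from that choice alone, so the comparison cannot serve as a test. The windows used as background were also not limited to the genes tested. By the share of windows with a match, the called genes did not stand apart from the rest: 6 of the 9 called genes (66.7%) and 14 of the 23 others (60.9%) held a match. A match is a run of letters and not a measured site of binding.

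**Figure D3:**
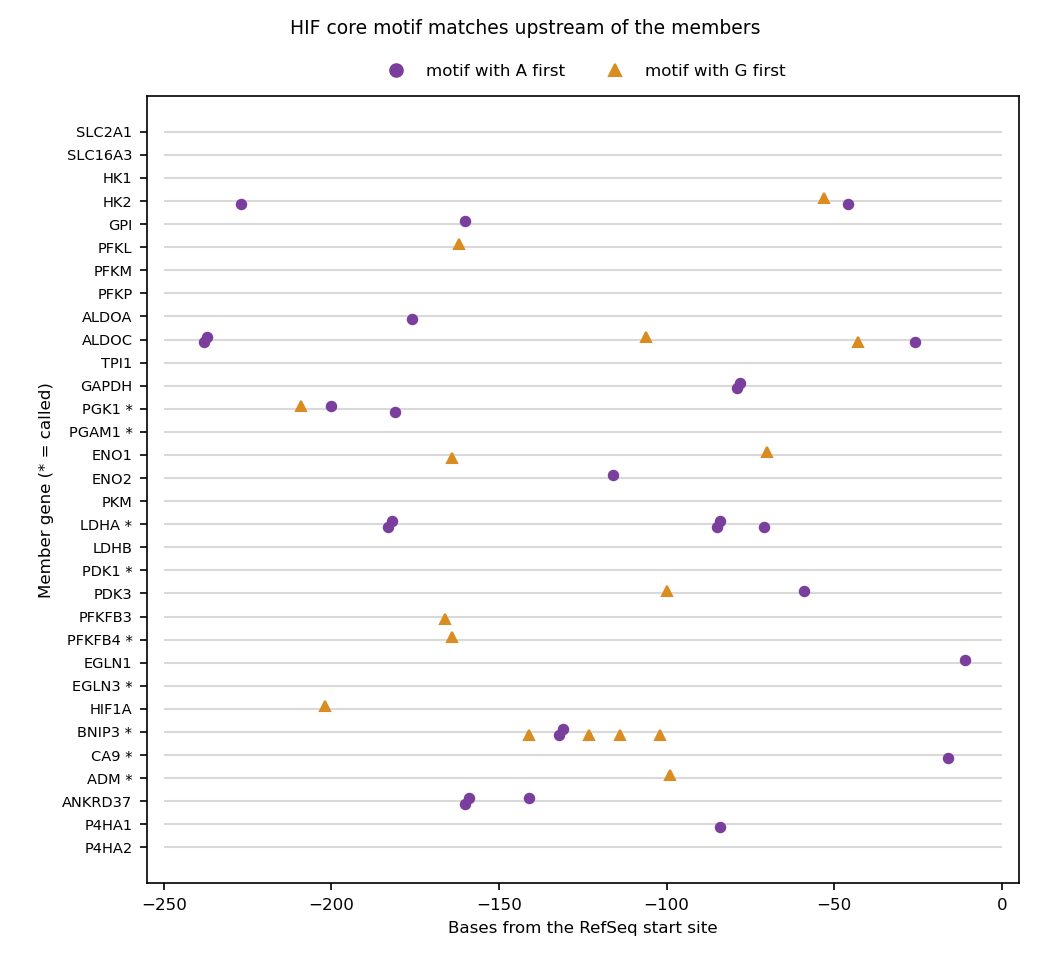
Matches to the core with A first (circles) and with G first (triangles) in the 250 bases before the RefSeq start of 32 of the 36 genes; the horizontal axis is the distance from the start in bases, symbols just above or below a line mark the strand, and an asterisk marks a DEG. Matches occur before called and uncalled genes alike, with 5 places before BNIP3 and none before PDK1, EGLN3 and PGAM1.

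Of the glycolytic enzymes, 3 of 17 fell (17.6%, against 5.48% of all genes) and none rose (5.97% of all genes did), with a median log2 fold change of -0.28. LDHA (ENSG00000134333) was the enzyme with the strongest fall. Its level was 1559, 1015 and 1484 CPM in Apatinib replicates 1 to 3 and 2207, 2172 and 2470 CPM in control replicates 1 to 3. The groups did not overlap, with Apatinib 2 lowest by a wide margin, and the log2 fold change was -0.76 ± 0.16 (SE) with an FDR of 0.0166 (edgeR). PGAM1 (ENSG00000171314), the phosphoglycerate mutase, was read at 263.5, 149 and 210.2 CPM with Apatinib and 306.5, 302 and 360.2 CPM in the control group. All control replicates were higher, and PGAM1 fell by 35.7%, a log2 fold change of -0.64 ± 0.18 (SE) with an FDR of 0.0423 (edgeR). PGK1 (ENSG00000102144), the enzyme before PGAM1 in the path and the first to yield ATP, had 819, 555 and 685 CPM with Apatinib and 932, 916 and 1078 CPM in the control group. It lay just inside both limits, with a log2 fold change of -0.51 ± 0.15 (SE) and an FDR of 0.0496 (edgeR). Without control 1 and without control 2, the edgeR FDR was 0.0672 and 0.0670 for LDHA, 0.113 and 0.110 for PGAM1, and 0.137 and 0.136 for PGK1. Without Apatinib 2 the log2 fold change was -0.58 for LDHA, which was still called, -0.44 for PGAM1 (FDR 0.0602) and -0.37 for PGK1 (FDR 0.0757). PGAM1 and PGK1 also lost their calls without Apatinib 3 (FDR 0.0839 and 0.0975) and without control 3 (0.0688 and 0.106), so that each was called in 1 of 6 such fits, and limma called neither. A correction for GC content also ended the call of PGK1 (log2 fold change -0.42, FDR 0.129), and so did the fit without a filter (-0.498).

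GPI, the isomerase of the second step, had the next smallest p among the enzymes. It was read at 381.5, 224 and 299.8 CPM with Apatinib and at 399, 391 and 502 CPM in the control group. The groups did not overlap, yet the edgeR FDR missed the limit (log2 fold change -0.51 ± 0.18, FDR 0.0847). DESeq2, the tool of the study, called it (FDR of GPI 0.0376), so that 4 of the 17 enzymes fell by that test. DESeq2 called 2054 genes in either direction, or 6.3% of the 32596 genes with any count. The edgeR shares are instead over the 16290 genes that passed the filter. GPI was also called without the filter (FDR 0.00814), with the replicate block (0.0315), with the GC correction (0.0331) and without Apatinib 1 (0.0390), all by edgeR. It was not called without any 1 of the other 5 libraries, with -0.34 (FDR 0.155) without Apatinib 2 and -0.39 (FDR 0.183) without control 3, nor with controls 1 and 2 summed (FDR 0.162) or with limma (FDR 0.141 to 0.352). The other 13 enzymes were not called, and their groups overlapped. GAPDH, often used as a constant reference, had 2657, 1565 and 2167 CPM with Apatinib and 2294, 2344 and 2872 CPM in the control group (log2 fold change -0.23, FDR 0.418). PKM had 6233, 4267 and 5140 CPM with Apatinib and 6063, 6090 and 7241 CPM in the control group (-0.31, FDR 0.209). In both genes Apatinib 1 lay within the range of the controls and the other Apatinib replicates below it. Without Apatinib 1 the log2 fold change was -0.42 for GAPDH and -0.46 for PKM, and without Apatinib 2 it was -0.05 and -0.18, with neither called. The estimates of TPI1, ENO1, ALDOA, HK2, LDHB, HK1 and PFKL lay between -0.33 and -0.07. HK2 depended on Apatinib 2: without it, the log2 fold change went from -0.30 to -0.56 and HK2 was called (FDR 0.0186, edgeR). Those of PFKM, PFKP, ENO2 and ALDOC were above 0, between 0.04 and 0.27. The sum of the 17 enzymes made up 1.73% of all counts in Apatinib 1, 1.25% in Apatinib 2 and 1.53% in Apatinib 3. In controls 1, 2 and 3 it made up 1.82%, 1.81% and 2.14%. These shares of raw counts did not overlap, although the gap between Apatinib 1 and control 2 was smaller than the spread within either group. They leave out the TMM factors, which were 0.9521 for Apatinib 1, 1.018 for control 1 and 1.005 for control 2. Scaled by them, as the CPM are, Apatinib 1 lies above controls 1 and 2, so that the groups overlap.

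**Figure D4:**
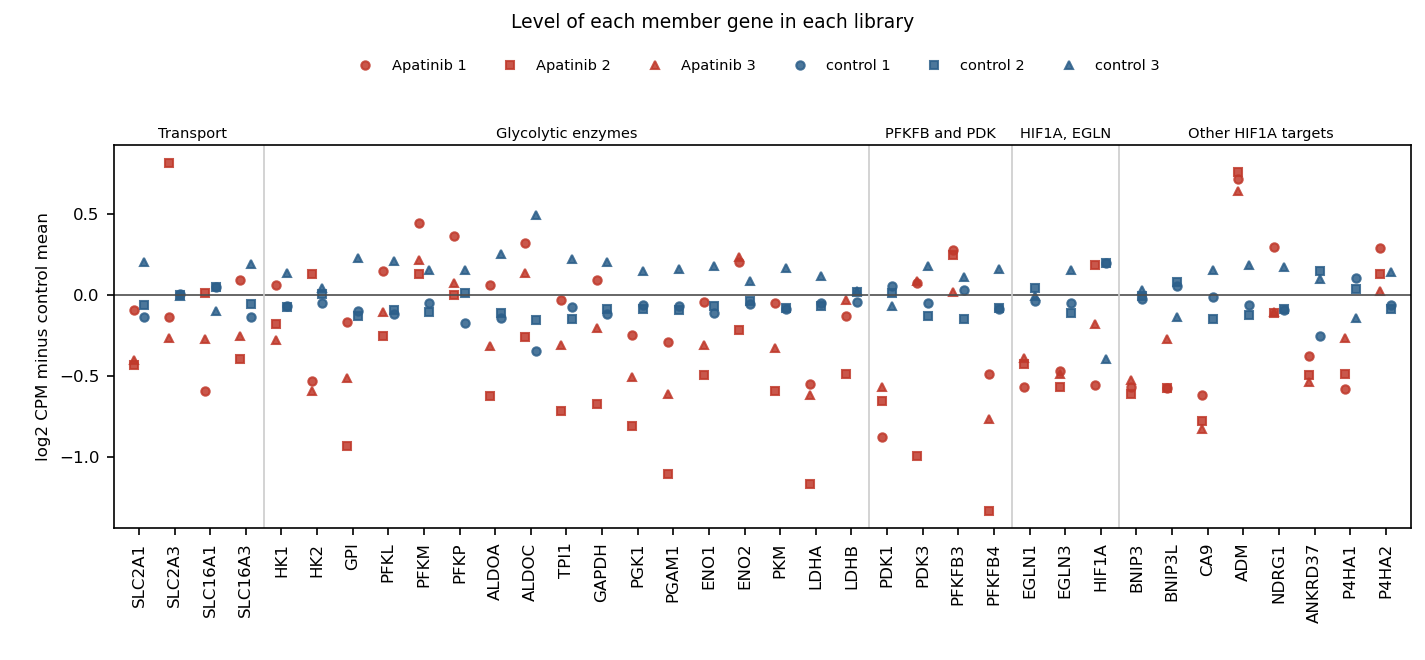
Level of each of the 36 genes in each library as log2 CPM minus the control mean of that gene, with red symbols for Apatinib and blue for control replicates and a different shape for each replicate number. Control 3 (blue triangle) lies above the other controls in all 17 enzymes and Apatinib 2 (red square) below the other Apatinib replicates in 15 of them, while BNIP3 shows 3 close symbols in each group.

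The enzymes that set the direction of flux gave 2 falls among 4 genes (5.48% of all genes fell). PDK1 (ENSG00000152256) is a kinase that inhibits pyruvate dehydrogenase and so keeps pyruvate out of the mitochondrion. It had the smallest FDR of the 36 genes. The level was 24.3, 28.4 and 30.2 CPM with Apatinib and 46.8, 45.3 and 42.9 CPM in the control group. Both groups were tight and well apart, and PDK1 fell by 38.6%, a log2 fold change of -0.70 ± 0.13 (SE) with an FDR of 0.00994 (edgeR). PFKFB4 (ENSG00000114268) makes and degrades fructose 2,6-bisphosphate, the activator of phosphofructokinase. Its level was 45.1, 25.0 and 37.1 CPM with Apatinib and 59.8, 60.2 and 71.3 CPM in the control group, again with Apatinib 2 lowest. PFKFB4 fell by 44.0%, with a log2 fold change of -0.84 ± 0.19 (SE) and an FDR of 0.0198 (edgeR). The FDR without control 1 and without control 2 was 0.0637 and 0.0577 for PDK1 and 0.0657 and 0.0664 for PFKFB4 (edgeR). The GC correction brought the log2 fold change of PDK1 to -0.47, inside the fold limit, with an FDR of 0.0133. PFKFB3 and PDK3, the other isoenzymes of the pair, were not called. PFKFB3 was read at 47.2, 46.2 and 39.3 CPM with Apatinib and 39.7, 35.0 and 41.9 CPM in the control group, with overlap. PDK3 had 34.3, 16.1 and 34.5 CPM with Apatinib and 31.3, 29.6 and 36.9 CPM in the control group, where only Apatinib 2 lay outside the range of the controls.

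Neither glucose transporter nor lactate transporter passed the test: edgeR called 0 of 4, with 1 at an unadjusted p under 0.05, and DESeq2 and limma also called 0 (edgeR called 11.5% of all genes). SLC2A1, the basal glucose transporter, had the smallest p of them. It was read at 133.5, 105 and 108 CPM with Apatinib and 129, 136 and 164 CPM in the control group (log2 fold change -0.31 ± 0.14, FDR 0.160, edgeR). The groups overlapped in Apatinib 1, and the estimate was -0.20 without control 3. SLC2A3, a glucose transporter of high affinity, was near 91 CPM in every control replicate, with 91.1, 90.8 and 90.4 CPM. With Apatinib it was 82.5, 160.4 and 75.5 CPM, so that Apatinib 2 alone was above the controls and the others below them. Without Apatinib 2 the estimate changed its sign. SLC16A1 and SLC16A3, which carry lactate across the membrane, had log2 fold changes of -0.27 and -0.18 and overlapping groups. With 1 library left out, the estimates ranged from -0.42 to -0.122 for SLC16A1 and from -0.328 to -0.073 for SLC16A3. In the other fits SLC16A3 lay between -0.385 and 0.027, and no fit called either gene.

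HIF1A mRNA did not pass the test. Its level was 474, 793 and 615.5 CPM with Apatinib and 799.9, 799 and 531 CPM in the control group. The groups overlapped widely: control 3 was lower than controls 1 and 2 and lay within the Apatinib range (log2 fold change -0.18 ± 0.20, FDR 0.592, edgeR). Single libraries moved this estimate widely, from -0.37 without Apatinib 2 and -0.35 without control 3 to -0.09 without control 1 or control 2 and -0.01 without Apatinib 1, and it was 0.19 with the GC correction (FDR 0.391, edgeR). EGLN3 (ENSG00000129521), a prolyl hydroxylase that HIF1A itself induces, was read at 57.9, 54.1 and 57.1 CPM with Apatinib and 77.7, 74.6 and 89.7 CPM in the control group. It fell by 30.2%, with a log2 fold change of -0.52 ± 0.12 (SE) and an FDR of 0.0223 (edgeR). EGLN1, the main oxygen sensor of the family, was read at 64.7, 71.7 and 73.4 CPM with Apatinib and 93.8, 99.4 and 95.8 CPM in the control group. Its groups did not overlap either, and the FDR was 0.0271 (edgeR), but the log2 fold change of -0.46 ± 0.11 (SE) did not reach the fold limit. The FDR of EGLN1 passed 0.05 without Apatinib 1 (0.0797), control 1 (0.112) or control 2 (0.143) and with the replicate block (0.0767). EGLN3 sat close to that limit itself. Of the 6 fits with a library left out, 1 called it, with a log2 fold change of -0.43 without control 3 and an FDR of 0.0914 without control 1 and 0.0796 without control 2. The call was also lost without Apatinib 1 (FDR 0.0523) and without Apatinib 2 (log2 fold change -0.48), and with limma on log2(FPKM + 1) (-0.48) and on log2(FPKM + 0.1) (-0.50).

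Of the 8 other targets of HIF1A, 2 fell and 1 rose (25% and 12.5%, against 5.48% and 5.97% of all genes). BNIP3 (ENSG00000176171) was the most even of them. The level was 46.5, 45.1 and 47.9 CPM with Apatinib and 67.9, 68.8 and 70.6 CPM in the control group. The groups were far apart for their spread, and the log2 fold change was -0.57 ± 0.11 (SE) with an FDR of 0.0120 (edgeR). BNIP3L, the related mitophagy receptor, was read at 171, 171 and 211 CPM with Apatinib and 264.5, 269 and 231 CPM in the control group. Its groups did not overlap either, although the gap between Apatinib 3 and control 3 was small, and its log2 fold change of -0.47 ± 0.13 (SE) missed the fold limit at an FDR of 0.0387 (edgeR). P4HA1, a prolyl hydroxylase that matures collagen, showed the same ordering, with 52.5, 56.0 and 65.3 CPM with Apatinib and 84.5, 80.7 and 71.3 CPM in the control group. Its log2 fold change was -0.44 ± 0.13 (SE), also under the fold limit, at an FDR of 0.0460 (edgeR). BNIP3L and P4HA1 were called without Apatinib 3 and without control 3. The GC correction reduced both, to -0.19 (FDR 0.203) for BNIP3L and -0.25 (FDR 0.0836) for P4HA1. With the replicate block the FDR was 0.0662 and 0.0935, with limma on log2(FPKM + 1) it was 0.0757 and 0.0930, and without any 1 of the other 4 libraries it lay between 0.0705 and 0.207.

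CA9 (ENSG00000107159), which lowers the pH outside the cell, was rare. It had 87, 79 and 75 counts with Apatinib and 138, 131 and 196 counts in the control group, or 5.05, 4.45 and 4.29 CPM against 7.95, 7.19 and 8.96 CPM. CA9 fell by 42.8%, with a log2 fold change of -0.81 ± 0.18 (SE) and an FDR of 0.0194 (edgeR). ARHGEF39, on the opposite strand, overlaps exons of CA9 in GENCODE release 29 and was read at 234 to 652 counts, with a log2 fold change of -0.55 (FDR 0.0730). Whether the counts use the strand is not given in the sources used here, so reads of the 2 genes cannot be told apart. ADM (ENSG00000148926), the gene of the vasodilator peptide adrenomedullin, moved the other way. It had 154, 164 and 148 counts with Apatinib and 87, 87 and 132 counts in the control group. In CPM these were 8.95, 9.24 and 8.46 against 5.01, 4.78 and 6.04, without overlap, and ADM was higher by 67.9% with a log2 fold change of 0.75 ± 0.17 (SE) and an FDR of 0.0223 (edgeR). Without control 1 and without control 2 the FDR was 0.0709 and 0.0762 for BNIP3, 0.0838 and 0.0640 for CA9, and 0.109 and 0.119 for ADM (edgeR). ADM also lost its call without Apatinib 1 (FDR 0.0555). ANKRD37, a small ankyrin repeat gene, was rare, with 2.56, 2.31 and 2.23 CPM with Apatinib and 2.82, 3.90 and 3.75 CPM in the control group (log2 fold change -0.56 ± 0.23, FDR 0.121, edgeR). NDRG1 and P4HA2 were not called, with log2 fold changes of 0.04 and 0.15 and overlapping groups.

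**Figure D5:**
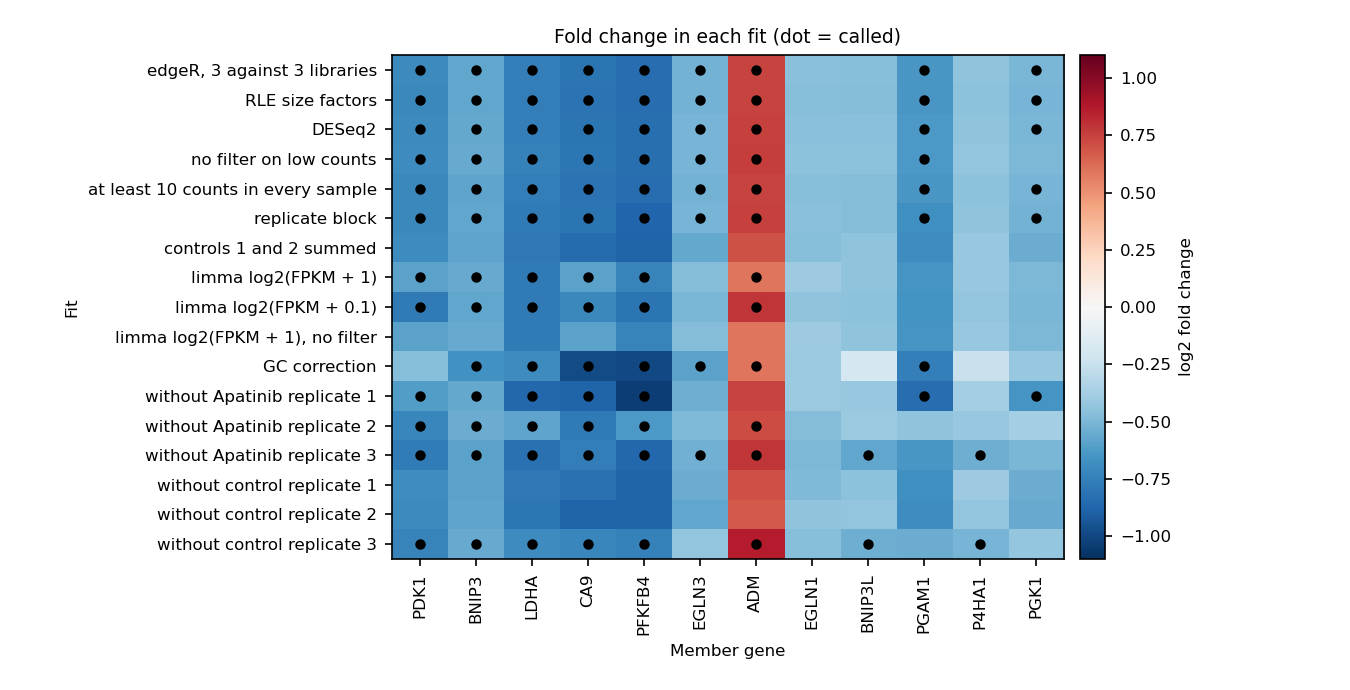
Log2 fold change (colour) of the 12 genes with an FDR under 0.05 in each of 17 fits, with a dot where the gene was called. The colours keep their sign down every column, and no dots stand in the rows without control 1, without control 2, with both summed, and with limma on unfiltered FPKM values.

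Ratios of related genes within a library were compared next, on the FPKM scale, since levels of different genes can be set against each other only per transcript length. Of 13 ratios, 6 did not overlap between the groups. Each of the 6 had an exact two-sided permutation p of 0.1, the smallest that 3 against 3 libraries allow, and an adjusted p of 0.217 over the 13, so that none could pass the threshold. LDHB makes the subunit of lactate dehydrogenase that favours pyruvate. The ratio of LDHB to LDHA was 0.356, 0.391 and 0.389 in the Apatinib group against 0.255, 0.282 and 0.237 in the control group. LDHA thereby supplied 72.6% ± 1.05 (SD, n = 3) of the FPKM of both genes with Apatinib and 79.5% ± 1.45 in the control group. PFKFB4 to PFKFB3 gave the widest difference, with ratios of 1.23, 0.711 and 1.31 in the Apatinib group against 2.02, 2.36 and 2.09 in the control group, a difference of -1.04 on the log2 scale. P4HA2 to P4HA1 was 2.71, 2.29 and 2.06 in the Apatinib group against 1.34, 1.37 and 1.98 in the control group, where control 3 came close to Apatinib 3. PFKM to PFKL, PFKP to PFKL and ENO2 to ENO1 were higher with Apatinib by 0.34, 0.21 and 0.34 on the log2 scale. The difference for ENO2 to ENO1 was 0.214 without Apatinib 3. The groups overlapped in the ratios of HK2 to HK1, ALDOC to ALDOA, SLC2A3 to SLC2A1, SLC16A3 to SLC16A1, PDK3 to PDK1, EGLN3 to EGLN1 and BNIP3L to BNIP3.

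Other genes of these paths were counted from lists that hold none of the 36. Among 23 other hypoxia-inducible genes, 2 fell and 1 rose, with a median log2 fold change of -0.05 (8.70% fell and 4.35% rose, against 5.48% and 5.97% of all genes). STC1, which encodes the secreted glycoprotein stanniocalcin, fell from 136, 129 and 124 CPM in the control group to 45.0, 73.4 and 51.1 CPM with Apatinib (log2 fold change -1.20 ± 0.17, FDR 0.00385, edgeR). This call held without any 1 of the 6 libraries, with FDRs up to 0.0239. ANGPTL4, a secreted inhibitor of lipoprotein lipase, fell at 1.28, 1.52 and 1.03 CPM against 2.77, 2.25 and 2.88 CPM (-1.04 ± 0.27, FDR 0.0313, edgeR). Of the fits with a library left out, 1 of 6 called ANGPTL4, with FDRs of 0.0802 without Apatinib 1, 0.0713 without Apatinib 3 and 0.0609 without control 3, and limma did not call it. LOX, which crosslinks collagen, rose at 65.2, 89.5 and 78.3 CPM against 54.6, 52.3 and 44.3 CPM (0.62 ± 0.15, FDR 0.0221, edgeR). VEGFA, the ligand of the receptor that Apatinib targets, was read at 161, 359 and 145 CPM with Apatinib and 135, 135 and 119 CPM in the control group. All 3 Apatinib replicates were higher, with Apatinib 2 far above the rest, and the FDR missed the limit (0.77 ± 0.28, FDR 0.0874, edgeR).

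Among 8 genes that control HIF, 1 rose (12.5%, against 5.97% of all genes): ARNT2, a partner subunit, was read at 37.2, 35.8 and 37.0 CPM with Apatinib and 21.7, 25.9 and 25.0 CPM in the control group (log2 fold change 0.60 ± 0.13, FDR 0.0153, edgeR). Of the 8 estimates, 7 were above 0 and 1 below (49.7% of all genes were below), with a median of 0.24. EPAS1 (0.379, FDR 0.0580) and HIF3A (0.695, FDR 0.0591) were higher without overlap and missed the FDR limit (edgeR). Of the 16 tested genes among 24 further isoenzymes and transporters, 1 rose (6.25%, near the 5.97% of all genes). SLC2A10, a glucose transporter of the same family as SLC2A1, had 69.8, 67.7 and 67.4 CPM with Apatinib and 47.4, 47.4 and 48.8 CPM in the control group (0.51 ± 0.11, FDR 0.0169, edgeR). Of 11 genes for the entry of pyruvate into the mitochondrion, 1 fell (9.09%, against 5.48% of all genes). DLD, a shared subunit of the pyruvate dehydrogenase complex, had 108, 114 and 144 CPM with Apatinib and 188.5, 182 and 152 CPM in the control group (-0.51 ± 0.14, FDR 0.0394, edgeR). DLD lost its call with the GC correction (-0.25, FDR 0.103), without Apatinib 1 (-0.43, FDR 0.116), without Apatinib 2 (FDR 0.0790), without the filter (-0.496) and with limma. The GC correction also took ARNT2 (0.499) and SLC2A10 (0.42) under the fold limit, and so did leaving out Apatinib 1 for SLC2A10 (0.499). ARNT2 was not called with limma on log2(FPKM + 1) either (0.46, FDR 0.0516). Among 7 genes of the pentose phosphate path edgeR called 0, with 3 at an unadjusted p under 0.05, and DESeq2 and limma called 0 as well. Over all 16290 genes, edgeR called 11.5%, and 4979 had an unadjusted p under 0.05. Among the 7 genes of the pentose phosphate path the smallest p was that of PGLS, a lactonase, with a log2 fold change of 0.48 ± 0.16 and an FDR of 0.0723 (edgeR). PGLS was called without Apatinib 2 (0.604, FDR 0.0384) and without control 3 (0.598, FDR 0.0331), and its estimate was 0.317 without Apatinib 1 (edgeR). Without control 1 and without control 2, the FDR was 0.120 and 0.0862 for ANGPTL4, 0.0803 and 0.0916 for LOX, 0.109 and 0.0705 for ARNT2, 0.106 and 0.106 for SLC2A10, and 0.178 and 0.167 for DLD (edgeR).

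Shared reads were looked at for the 36 genes. In GENCODE release 29, 23 of them overlap exons of another gene, 18 on the opposite strand. ATP7A shares exons with PGK1 on the same strand and was read at up to 8.94% of the PGK1 counts. UCN2 and an antisense transcript, AC078883.1, reached 4.29% of PFKFB4 and 7.42% of PDK1. Larger overlaps lie on the opposite strand, where reads cannot be told apart unless the counting used the strand. UFSP2, opposite to ANKRD37, had 316 to 486 counts, more than ANKRD37 itself. CSNK1D reached 115% of the SLC16A3 counts, SENP1 99.1% of those of PFKM (with a log2 fold change of its own of -0.43, FDR 0.0477, edgeR) and PNMA2 32.3% of those of BNIP3L. Processed pseudogenes listed beside the parent genes took few reads: the 58 of GAPDH together had at most 0.259% of its counts, the 6 of LDHA 0.285%, and the largest share was 1.5%, for BNIP3.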

How the data were processed

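RNA of 3 Apatinib and 3 control replicates of SW872 cells was sequenced on the Illumina Novaseq platform. The authors deposited counts, whole numbers per gene without normalization, and FPKM values per replicate, scaled by the authors to transcript length and mapped fragments. The submitters' processing notes name CASAVA, STAR 2.7.1a and hg19. The counting program, annotation and strand setting are not given in the sources used here. The authors compared the groups with DESeq2. An extra column of values in 1 file was not used (1 column).

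Counts were tested in R 4.3.3 with edgeR 4.0.16 (TMM factors 0.952 to 1.03, filterByExpr, quasi-likelihood test, Benjamini-Hochberg FDR over 16290 genes), without covariates. DEGs were genes whose FDR was below 0.05 and whose log2 fold change exceeded 0.5 in either direction, the limits of the study. CPM use TMM factors. A self-test on simulated data was run before use. It drew all libraries as independent, without the closeness of controls 1 and 2. Full values are given for each called member and the 6 uncalled ones with the smallest p, and other pathway lists are given by counts with values of their DEGs, or of the smallest p where none was called. A few further genes (VEGFA, GAPDH, PKM and others by level) were added after their values were seen. The members and lists were chosen with earlier results of these data known. Between-group p-values set the difference of the groups against the spread between these replicates. Replicate numbers did not pair the groups. Control 1 and control 2 differed by more than sampling noise and were kept as 2 samples. Such a difference would also arise between technical replicates, so whether they came from separate cultures is not settled by the counts. Alternatives were DESeq2 1.42.0, RLE factors, other filters, the replicate block, controls 1 and 2 summed, limma 3.58.1 on log2(FPKM + 1) or log2(FPKM + 0.1) with a mean FPKM above 0.5 or no filter, and each replicate left out. A GC correction (loess, span 0.3) was added after seeing the data. Promoter windows and gene overlaps came from RefSeq (GRCh38.p14) and GENCODE release 29, matched by symbol and Ensembl identifier. No hg19 annotation was used.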

Additional observations from a re-analysis of the deposited data

How the results depend on the processing

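The 36 genes kept 1 direction in all 16 other fits in 27 cases (23 lower, 4 higher), the 9 DEGs included. The number of DEGs among them was 9 with RLE factors (11.4% of all genes tested in that fit), 9 without a filter (7.85%) and 9 with at least 10 counts in every sample (12%). It was 10 with DESeq2 (6.3%) and 8 with the GC correction (8.77%). The fit without a filter and DESeq2 each tested 32596 genes. Without a filter, GPI was called in place of PGK1. Limma on FPKM called 5 lower and 1 higher with either pseudocount, and 0 without a filter on low values (15 with an unadjusted p under 0.05). With controls 1 and 2 summed, edgeR called 0, in neither direction. Leaving out 1 library gave 0 to 9 calls, 0 to 8 of them lower and 0 to 1 higher, the lowest without control 1 or control 2 and no higher one without Apatinib 1. Over all genes, the 1866 DEGs became 292 with controls 1 and 2 summed, 796, 810 and 9 with limma at a pseudocount of 1, of 0.1 and without a filter, and 275 to 2594 with 1 library left out (795 without Apatinib 1). The median of the 36 genes lay between -0.39 and -0.19 with 1 library left out. The log2 ratio of SLC16A3 to SLC16A1 was 0.293, and -0.055 (without Apatinib 1) to 0.509 with a library left out. That of EGLN3 to EGLN1 was -0.056, and -0.133 to 0.030 (without control 3). The cause of these changes was not tested. Same-numbered replicates were not paired (correlations of -0.338, 0.101 and -0.273), and the replicate block gave 10 DEGs among the 36 and 2215 in all. The largest correlation across the groups was 0.475, between Apatinib 1 and control 3. Its cause was not tested. The rarest genes by CPM were ANKRD37, CA9 and ADM, and the part of depth in their values was not tested.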

Other observations

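Apatinib 2 stood above all other libraries in several hypoxia-inducible genes while it held the lowest levels of most glycolytic enzymes. These genes were picked after their values were seen. STC2, a secreted glycoprotein, was read at 78.5, 253.8 and 67.5 CPM with Apatinib and 81.2, 71.5 and 50.8 CPM in the control group (log2 fold change 0.98 ± 0.41, FDR 0.131, edgeR). ERRFI1, an inhibitor of the EGF receptor, was read at 348, 830.3 and 344 CPM with Apatinib and 471, 467 and 425 CPM in the control group (0.16 ± 0.28, FDR 0.740, edgeR). VEGFA and SLC2A3 were likewise highest in Apatinib 2. GBE1, the branching enzyme of glycogen, was among the genes just outside the fold limit, with 45.5, 43.6 and 54.7 CPM with Apatinib and 67.2, 67.6 and 68.2 CPM in the control group (-0.50 ± 0.13, FDR 0.0292, edgeR). No cause was tested for these values.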
